A study of Homo sapiens with 6 samples.

Results

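The 10 genes followed here through the 6 RNA-sequencing samples of the series are 7 aldo-keto reductases (AKR1A1, AKR1B1, AKR1B10, AKR1C1, AKR1C2, AKR1C3 and AKR7A2) and 3 other targets of the transcription factor NRF2 (NQO1, GCLM and TXNRD1). They are 10 of the 48162 genes in the count table. AKR1B1 was chosen on its measured values, because it is very abundant and differed between replicates, so its own values are given as a description with no test of its own. The other 9 were named for their family or pathway, though with earlier results of these data known. The question put to them was whether they moved from sample to sample together with AKR1B1. The samples are SiHa cells, an established line of human cervical cancer, of which 3 samples received si-CNN3#1, an siRNA (small interfering RNA) directed at the actin-binding protein calponin 3, and 3 received the control siRNA si-NC by transfection. RNA was taken at 48 h. The labels put the change of medium at 24 h, and the methods of the study give an earlier time for siRNA. Each arm is 1 siRNA in 1 cell line, and the numbers 1 to 3 in the labels name the replicates of each group.

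Aldo-keto reductases use NADPH to turn aldehydes and ketones into alcohols. AKR1B1 (aldose reductase) makes sorbitol from glucose in the polyol pathway, and the AKR1C enzymes act on steroid hormones and prostaglandins. NRF2, encoded by NFE2L2, is held at a low level by KEAP1 and, once released, binds antioxidant response elements in front of genes for quinone reduction, glutathione synthesis and thioredoxin reduction. AKR1B10, the AKR1C genes, NQO1, GCLM and TXNRD1 are known targets of NRF2 in human cells, and AKR1B1 is also known as a gene induced by osmotic stress through NFAT5.

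The stretches before the RefSeq start sites of 4 of these genes are shown because they hold, or lack, the letters NRF2 is known to bind. AKR1B1 and AKR1C3 varied together, and GCLM and TXNRD1 were the members higher with si-CNN3#1. These 4 do not stand for all members. AKR7A2, which did not pass between conditions, also holds matches, and NQO1, which was lower with si-CNN3#1, holds none. Each run is 250 bases, 5′ to 3′ on the gene's own strand, from RefSeq on GRCh38.p14. Capitals mark matches to TGACNNNGC, the core of the antioxidant response element, on either strand. The first runs over chr7:134459101-134459350 (minus), the next over chr10:5048531-5048780 (plus), then chr1:93909431-93909680 (minus) and chr12:104286782-104287031 (plus).
AKR1B1: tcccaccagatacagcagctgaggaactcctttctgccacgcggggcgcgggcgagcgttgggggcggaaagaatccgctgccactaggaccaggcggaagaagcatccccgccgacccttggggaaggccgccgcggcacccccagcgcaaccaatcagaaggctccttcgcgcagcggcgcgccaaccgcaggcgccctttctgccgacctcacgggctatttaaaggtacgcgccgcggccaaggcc
AKR1C3: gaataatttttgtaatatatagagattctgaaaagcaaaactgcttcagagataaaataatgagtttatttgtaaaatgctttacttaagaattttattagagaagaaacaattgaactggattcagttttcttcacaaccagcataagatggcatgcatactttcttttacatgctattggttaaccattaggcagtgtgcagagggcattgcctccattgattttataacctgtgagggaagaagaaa
GCLM: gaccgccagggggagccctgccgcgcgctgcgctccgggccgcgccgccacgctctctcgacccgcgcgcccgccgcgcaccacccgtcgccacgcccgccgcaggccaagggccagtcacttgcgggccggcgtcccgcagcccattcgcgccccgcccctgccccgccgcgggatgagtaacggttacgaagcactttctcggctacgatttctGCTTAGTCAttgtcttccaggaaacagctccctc
TXNRD1: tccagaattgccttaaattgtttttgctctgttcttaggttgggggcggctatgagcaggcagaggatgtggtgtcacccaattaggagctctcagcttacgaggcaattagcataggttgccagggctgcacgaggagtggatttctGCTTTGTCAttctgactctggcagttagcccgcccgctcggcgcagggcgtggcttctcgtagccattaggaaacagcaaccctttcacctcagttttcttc

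The core motif was searched in windows of 300 bases that reach 50 bases past each start site. Some genes have several windows, which can overlap. Those of AKR7A2 cover nearly the same bases and hold the same matches, so the windows are not independent. The motif stood in at least 1 window of 3 of the 9 members with an entry (AKR7A2, GCLM and TXNRD1), against 16.1% of all 27305 genes, and in 5 of the members' 13 windows, against 13.3% of all 35116 windows. In GCLM it lay from base -34 to -26 before the start site, and in the TXNRD1 window shown from -102 to -94. The osmotic response element consensus was in 2.86% of all windows and in 0 of the 9 members' windows. These are matches of letters in short windows and describe neither binding nor its absence.

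Some of these genes are so alike that short reads can fall on more than 1 of them. The first 60 coding bases of the AKR1C genes are shown for that reason, with capitals where a base differs from AKR1C1.
AKR1C1: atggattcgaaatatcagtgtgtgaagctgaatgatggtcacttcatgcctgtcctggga
AKR1C2: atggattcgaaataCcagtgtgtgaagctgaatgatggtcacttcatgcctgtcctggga
AKR1C3: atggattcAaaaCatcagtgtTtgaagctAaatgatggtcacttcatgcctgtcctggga
AKR1C2 differed from AKR1C1 at 1 of these bases and AKR1C3 at 4. Over the whole coding sequence AKR1C1 and AKR1C2 were 98% identical, AKR1C1 and AKR1C3 91.9%, and AKR1B1 and AKR1B10 76.2%. Of all 50-base windows of the coding sequence, 54.5% in AKR1C1, 57.2% in AKR1C2 and 23% in AKR1C3 also occurred in another gene, mostly another AKR1C. The share was 28.4% in AKR1B10, 10.2% in AKR7A2 and 7.21% in AKR1B1, the last of these in AKR1B1 pseudogenes, and 0 in AKR1A1, NQO1, GCLM and TXNRD1. The window length was a setting chosen here and not the read length, so these shares do not give the part of reads affected. How reads with several matches were counted is not given in the sources used here, so counts of AKR1C1, AKR1C2 and, in part, AKR1C3 may be mixed with each other. The siRNAs themselves are shown because their guide strands can also act on sites in other transcripts. In the sense strands below, capitals mark the bases that pair with guide bases 2 to 8.
si-CNN3#1: gcagaugggaaCCAACAAatt
si-NC: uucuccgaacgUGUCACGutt
The 7-base si-CNN3#1 site was in the 3′ UTR of 0 of the 10 genes (9.88% of 18652 genes hold it), and the si-NC site was in that of AKR1C1 (3.02% of genes).

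Counts on genes ran from 18147028 to 19026341 per sample with si-CNN3#1 and from 20287139 to 24976517 with si-NC, and replicate 2 was the deepest sample in both groups. Counts were scaled to a common total per sample (CPM) with TMM size factors, and levels of different genes were compared as the deposited FPKM, which is also divided by gene length. CNN3 lay at 26.0, 26.8 and 31.4 CPM with si-CNN3#1 and at 56.5, 51.7 and 57.2 CPM with si-NC (log2 fold change -0.97, standard error (SE) 0.055). All 6 markers of simple epithelium reached 1 FPKM, with a summed level of 1447 to 1464 FPKM with si-CNN3#1 and 1465 to 1498 with si-NC. Of 5 fibroblast markers 2 reached 1 FPKM (sums of 7.81 to 7.95 and 7.80 to 8.58 FPKM). Of 4 leukocyte markers 2 did, with sums of 110.6 to 116.5 and 130.7 to 141.3 FPKM that were nearly all CD14, while PTPRC, found on all leukocytes, stayed at or below 0.39 FPKM. The endothelial markers in the table, CDH5 and VWF, summed to at most 0.40 FPKM. The part of these levels in any result was not tested. In such bulk samples fewer cells with a transcript and less of it per cell cannot be told apart.

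AKR1B1 (ENSG00000085662, chromosome 7, 134442350 to 134459284 on the minus strand of GRCh38) was the fourth most abundant gene by mean FPKM. It had 84741, 77095 and 85049 counts in si-CNN3 replicates 1, 2 and 3, and 99851, 108728 and 109611 counts in si-NC replicates 1, 2 and 3. After scaling these were 4494, 4015 and 4658 CPM with si-CNN3#1 and 4977, 4368 and 5081 CPM with si-NC. Replicate 2 was the lowest sample of both groups and replicate 3 the highest. The groups overlapped, because si-NC replicate 2 lay below 2 of the si-CNN3 samples. The si-CNN3 mean of 4389 ± 334 CPM (SD, n = 3) came to 91.3% of the si-NC mean of 4809 ± 385 CPM (SD, n = 3). Within each replicate number the si-CNN3 sample was the lower one, with log2 differences of -0.15, -0.12 and -0.13.

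The spread of AKR1B1 between replicates was far above counting error. The within-group SD of its log2 CPM was 0.12, against 0.0047 from counting alone and a median of 0.033 over the 2486 genes with a mean of at least 100 CPM. Of these genes 9, AKR1B1 included, had a within-group SD as large. Relative to their group means the si-CNN3 samples stood at 0.04, -0.13 and 0.09 on the log2 scale and the si-NC samples at 0.05, -0.14 and 0.08. The pattern over replicates 1, 2 and 3 was thus nearly the same in both groups.

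**Figure D1:**
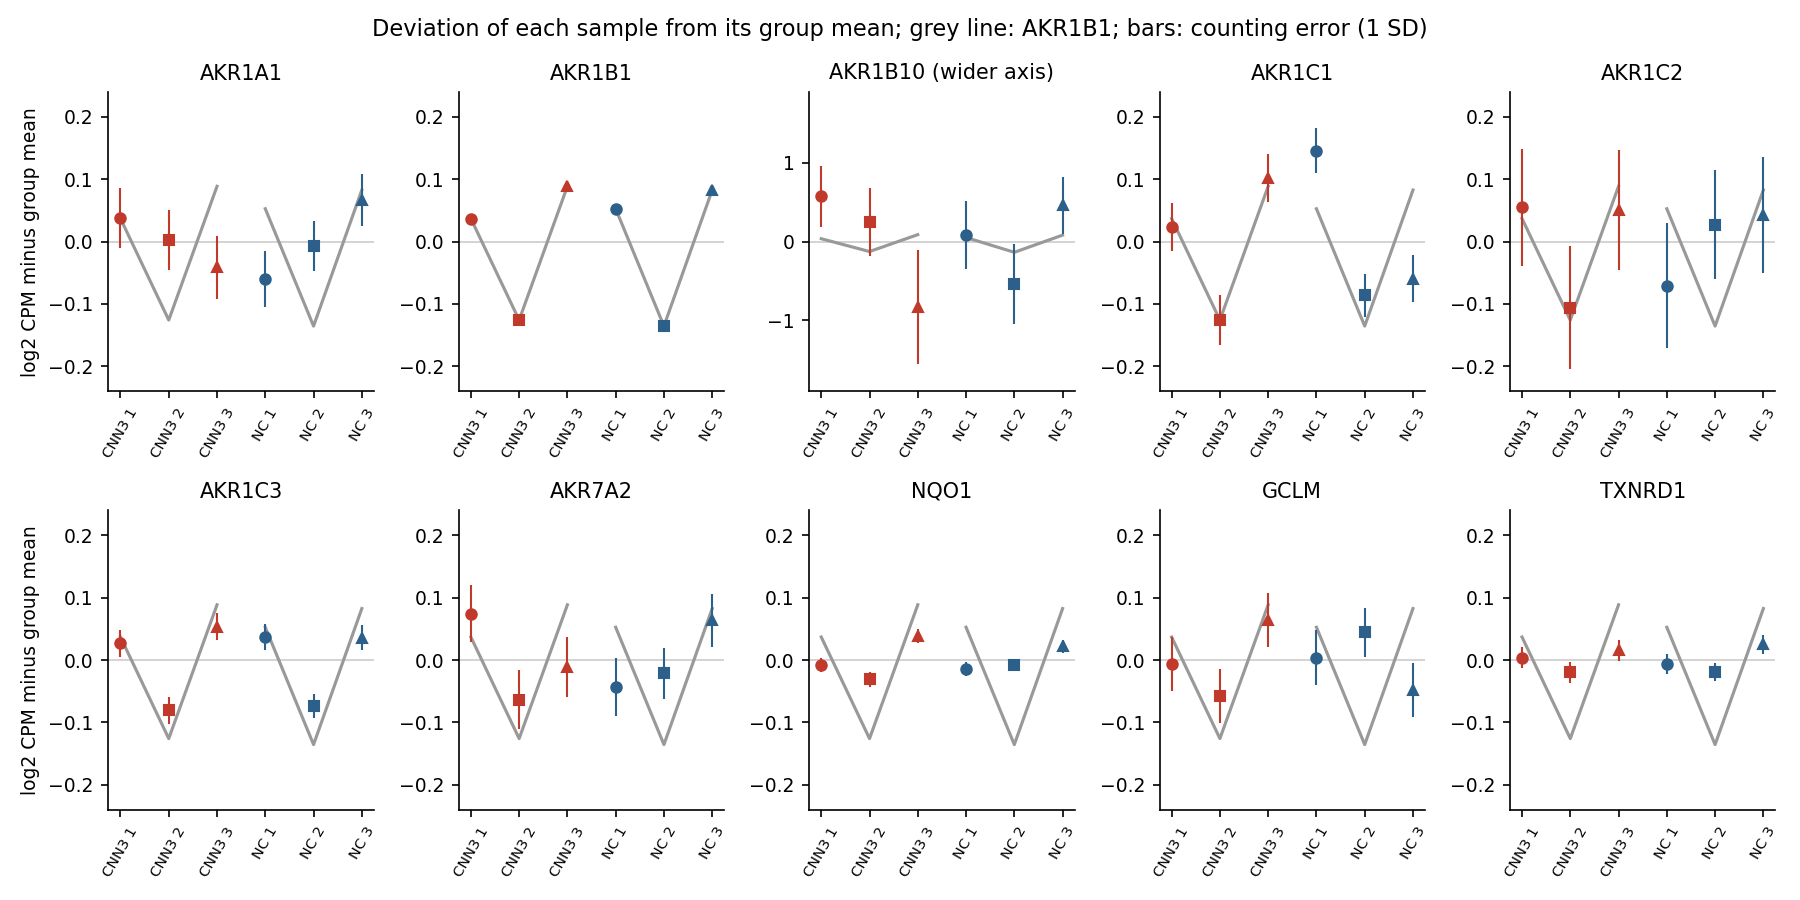
Deviation of log2 CPM from the group mean (vertical axis) in each of the 6 samples (horizontal axis; red, si-CNN3; blue, si-NC), with bars of 1 SD of counting error and the deviations of AKR1B1 repeated as a grey line. AKR1C3 follows the line in all 6 samples at a smaller size, NQO1 and TXNRD1 stay close to 0, and AKR1B10 has a wider axis because it rests on 4 to 16 counts.

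AKR1C3 was the member that followed AKR1B1 most closely. It encodes a hydroxysteroid dehydrogenase that makes testosterone from androstenedione and also reduces prostaglandins (ENSG00000196139, chromosome 10, 5035354 to 5107686, plus strand). Its counts were 4484, 4238 and 4421 in the si-CNN3 samples against 4899, 5628 and 5263 in the si-NC samples, or 237.8, 220.7 and 242.1 CPM against 244.2, 226.1 and 244.0 CPM. Replicate 2 was again the lowest sample of both groups, as in 488 (19.6%) of the 2485 genes other than AKR1B1 with at least 100 CPM. The deviations of AKR1C3 from the group means were 0.03, -0.08 and 0.05 with si-CNN3#1 and 0.04, -0.07 and 0.04 with si-NC. All 6 had the sign of those of AKR1B1. The slope of the deviations of AKR1C3 on those of AKR1B1 over the 6 samples was 0.58. Such a slope is the Pearson r times the ratio of the SDs, so it is below the relative size where r is low. The Pearson r of AKR1C3 with AKR1B1 was 0.99. This r is a description over 6 deviations that add up to 0 within each group and that share library and depth. When any 1 sample was left out r stayed between 0.99 and 1.00. Without both samples numbered 2 it was 0.84, but the deviations left in each group then mirror each other, so this r rests on little. The within-group SD of AKR1C3 was 0.067 on the log2 scale, against 0.021 from counting.

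AKR1C1, which inactivates progesterone, followed in part (ENSG00000187134, chromosome 10, 4963253 to 4983283, plus strand). It stood at 73.6, 66.3 and 77.7 CPM with si-CNN3#1 and at 79.4, 67.6 and 68.9 CPM with si-NC. Replicate 2 was lowest in both groups, but si-NC replicate 3 lay close to it, where AKR1B1 was at its highest. The r with AKR1B1 was 0.72 with a slope of 0.76 and the same sign in 5 of 6 samples, and 0.99 without si-NC replicate 3. It was -0.16 without both samples numbered 2, which rests on little, as for AKR1C3. Its SD of 0.12 was also above the counting error of 0.038.

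The remaining reductases lay nearer to their counting error. AKR1C2, which inactivates dihydrotestosterone (chromosome 10, 4987400 to 5018031, minus strand), was counted 234, 213 and 226 times in the si-CNN3 samples against 207, 275 and 241 times in the si-NC samples. Its within-group SD of 0.078 was below the 0.095 that counting gives, and its r with AKR1B1 of 0.45 ran from -0.26 to 0.89 when single samples were left out. AKR7A2, a reductase of succinic semialdehyde (chromosome 1, 19303965 to 19312146, minus strand), lay at 52.0, 47.2 and 49.0 CPM and at 49.1, 49.9 and 52.9 CPM, with an SD of 0.063 against 0.045 from counting and an r of 0.53 (0.21 to 0.75 without single samples). AKR1A1, a general aldehyde reductase (chromosome 1, 45550543 to 45570049, plus strand), had an SD of 0.053 against 0.046 from counting, an r of 0.03 (-0.55 to 0.32 without single samples) and the same sign as AKR1B1 in 3 of 6 samples. AKR1B10, the closest relative of AKR1B1 among the members and its neighbour on chromosome 7 (134527592 to 134541408, plus strand), was counted only 14, 11 and 4 times against 11, 8 and 16 times, so a pattern of the size seen in AKR1B1 was not detectable at this depth.

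NQO1 and TXNRD1, with more counts than any AKR1C gene, varied less than AKR1C3 and AKR1C1. NQO1, a quinone reductase (chromosome 16, 69706996 to 69726951, minus strand), had 15271 to 22093 counts per sample, and the within-group SD of its log2 CPM was 0.028, against 0.011 from counting. Its deviations had a slope of 0.17 on those of AKR1B1, with an r of 0.70 and the same sign in 4 of 6 samples. This r ran from 0.47 to 0.84 without single samples. Without both samples numbered 2 it was 0.99, which rests on little, as said for AKR1C3. TXNRD1, which keeps thioredoxin reduced (chromosome 12, 104215779 to 104350305, plus strand), had an r of 0.88 with a slope of 0.16, and its SD of 0.021 was close to the 0.016 of counting. Without both samples numbered 2 its r was 0.77, which likewise rests on little. GCLM, the modifier subunit of the enzyme that starts glutathione synthesis (chromosome 1, 93885205 to 93909456, minus strand), had an r of 0.12, which ran from -0.55 to 0.79 when single samples were left out, and an SD of 0.054 against 0.043 from counting.

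High values of r were common among all genes, so r alone does not set these members apart. Over the 2485 other genes with a mean of at least 100 CPM the median r with AKR1B1 was 0.10, 5% lay at -0.83 or below and 5% at 0.90 or above, and 1372 (55.2%) were above 0. Of these genes 5, AKR1C3 included, had an r as high as AKR1C3, 153 as high as TXNRD1 and 399 as high as NQO1. Deviations of the same sign as AKR1B1 in all 6 samples were found in 159 (6.40%), and 13, AKR1C3 included, had a slope of at least that of AKR1C3. The genes with the highest r besides AKR1C3 were NCOA3 (0.995, slope 0.18), SSR2 (0.993, slope 0.38), NUB1 (0.992, slope 0.78) and TSPO (0.992, slope 0.30). Those most opposite were NFKB1 (-0.995, slope -0.27), CYBRD1 (-0.995, slope -0.36), ID1 (-0.985, slope -0.89), B4GALT1 (-0.984, slope -0.24) and KCTD3 (-0.980, slope -0.39).

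**Figure D2:**
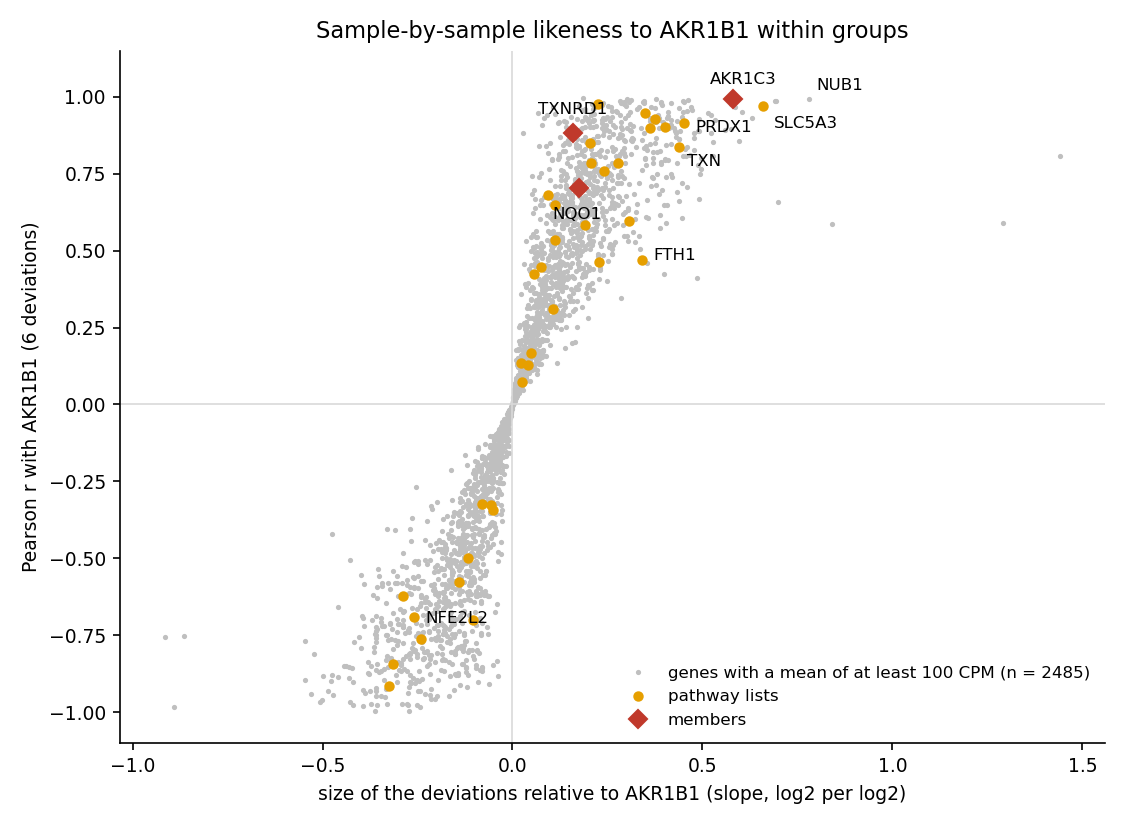
Pearson r of the 6 within-group deviations with those of AKR1B1 (vertical axis) for the 2485 other genes with a mean of at least 100 CPM (grey). The horizontal axis, labelled as size, is the slope of these deviations on those of AKR1B1. Pathway genes are in orange and members in red. AKR1C3 combines an r of 0.99 with a slope of 0.58, whereas TXNRD1 and NQO1 lie at slopes of 0.16 and 0.17, among many other genes.

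Whether a gene differed between replicate numbers was tested with edgeR's quasi-likelihood test, in a fit with both condition and replicate number as terms. Over all 15860 genes tested, 122 (0.769%) passed at an adjusted p of 0.05 (Benjamini-Hochberg over all genes). Of the 9 members other than AKR1B1, 2 passed, AKR1C3 (adjusted p = 0.00387) and AKR1C1 (adjusted p = 0.0145), and 3 had an unadjusted p under 0.05, the third being NQO1 (adjusted p = 0.530). TXNRD1 (adjusted p = 0.797), AKR7A2 (0.856), AKR1B10 (0.895), AKR1C2 (0.957), AKR1A1 (0.971) and GCLM (0.995) did not pass. In DESeq2's likelihood ratio test, 8 of 6848 genes passed and 0 of the 7 members it tested, with 1 of them, AKR1C3, at an unadjusted p under 0.05, so the calls for AKR1C3 and AKR1C1 rest on edgeR's fit. The replicate 2 samples were also the deepest, and the part of depth in this pattern was not tested.

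To set the replicate number aside, the log2 difference between si-CNN3 and si-NC was taken within each replicate number. Over the 3 differences the r with AKR1B1 fell to 0.47 for AKR1C3 and was above 0 in 2 of the 9 members, against 9 of 9 for the 6 deviations. With 3 points this is a description. The differences of AKR1C3 were -0.038, -0.035 and -0.011, beside a counting error of 0.021 per sample. The r over them therefore cannot tell a loss of likeness from counting error.

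Between the conditions, 4 of the 9 members tested passed the threshold, with mean levels from 88.0% to 112.3% of the control, and they did not move one way. AKR1A1 and NQO1 were lower with si-CNN3#1, GCLM and TXNRD1 were higher. In the same fit (edgeR's quasi-likelihood test, condition only, adjusted over all genes) 2111 of 15860 genes (13.3%) passed, 978 higher (6.17%) and 1133 lower (7.14%). When counts were scaled by their totals alone the split over all genes turned to 1294 higher and 863 lower, while the same 2 members were higher and the same 2 lower. With the replicate number as a block, 2727 genes (17.2%) passed. All 10 members were abundant enough to pass the filter on low counts.

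NQO1 stood at 810, 797 and 836 CPM with si-CNN3#1 and at 884, 888 and 907 CPM with si-NC. The highest si-CNN3 sample was below the lowest si-NC sample, and the log2 fold change was -0.13 (SE 0.025, adjusted p = 6.48e-05 in edgeR's test). AKR1A1 stood at 47.5, 46.3 and 45.0 CPM against 50.4, 52.3 and 55.0 CPM. Again no sample overlapped, with a log2 fold change of -0.18 (SE 0.046, adjusted p = 0.00344 in edgeR's test). This call was kept in every fit, but close to the threshold in DESeq2 (adjusted p = 0.0385) and, with edgeR, without si-NC replicate 3 (adjusted p = 0.0499).

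GCLM stood at 58.7, 56.7 and 61.7 CPM with si-CNN3#1 and at 52.7, 54.2 and 50.8 CPM with si-NC. All si-CNN3 samples were higher, by a log2 fold change of 0.17 (SE 0.044, adjusted p = 0.00636 in edgeR's test). The call was lost in DESeq2 (adjusted p = 0.0587) and, with edgeR, when replicate 3 of si-CNN3 (adjusted p = 0.0668) or of si-NC (adjusted p = 0.0621) was left out. TXNRD1 stood at 412, 405 and 415 CPM against 385, 382 and 394 CPM, also without overlap, with a log2 fold change of 0.09 (SE 0.026, adjusted p = 0.0158 in edgeR's test). This call was lost without si-CNN3 replicate 3 (adjusted p = 0.0531), si-NC replicate 1 (0.0600) or si-NC replicate 2 (0.0898), and without both samples numbered 2 (0.0707). These 4 were also the members whose groups did not overlap, a pattern seen in 28.2% of all genes tested.

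The other reductases did not pass. The log2 fold change was 0.01 for AKR1C1 (SE 0.047, adjusted p = 0.899), 0.14 for AKR1C2 (SE 0.085, adjusted p = 0.331), -0.03 for AKR1C3 (SE 0.031, adjusted p = 0.656), -0.04 for AKR7A2 (SE 0.046, adjusted p = 0.694) and -0.03 for AKR1B10 (SE 0.41, adjusted p = 0.975), all from edgeR's test. The log2 fold change of AKR1B1, with no test, was -0.13. The plot of levels by sample shows both patterns side by side.

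**Figure D3:**
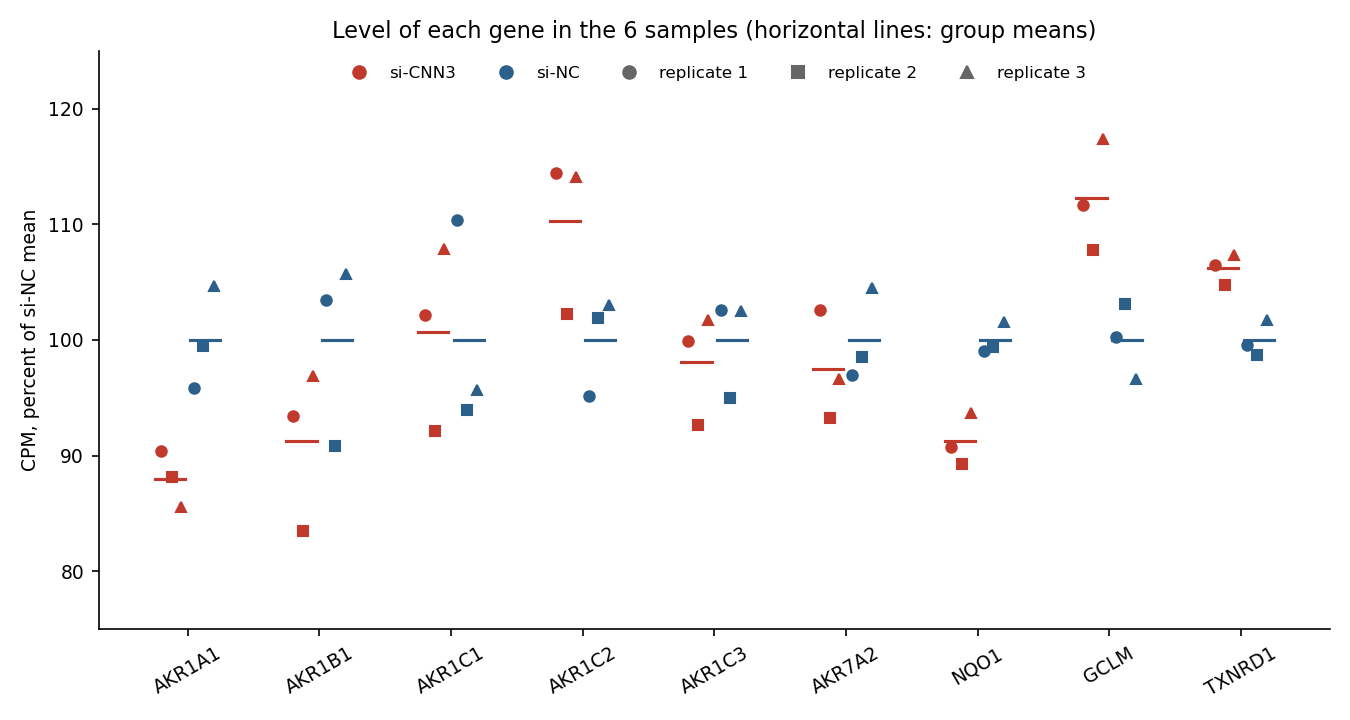
CPM of 9 of the 10 genes in each sample as a percentage of the si-NC mean (vertical axis, not starting at 0), with symbols for the replicate number and lines for group means; AKR1B10 is left out because of its low counts. Squares (replicate 2) are lowest in both groups for AKR1B1, AKR1C1 and AKR1C3, and red and blue points separate for AKR1A1, NQO1, GCLM and TXNRD1.

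Per length, AKR1B1 exceeded every other member many times over. The mean FPKM with si-NC was 5344 ± 412 for AKR1B1, 635 ± 9.05 for NQO1, 241 ± 9.69 for AKR1C3, 183 ± 2.74 for TXNRD1, 64.0 ± 2.92 for AKR1A1 and 53.1 ± 2.14 for AKR7A2 (SD, n = 3). Below these came AKR1C1 at 31.3 ± 2.72, GCLM at 25.8 ± 0.89, AKR1C2 at 8.74 ± 0.40 and AKR1B10 at 0.57 ± 0.22 FPKM. Neighbours in this order did not overlap in the si-NC samples. With si-CNN3#1 the order was the same, but AKR1C1 (29.3 to 34.3 FPKM) and GCLM (28.3 to 30.7 FPKM) overlapped. The place of AKR1C1 depends on the length behind its FPKM, 2280 bases against 815 for AKR1A1 and 947 for AKR7A2. By mean CPM with si-NC, AKR1C1 (72.0) stood above AKR1A1 (52.6) and AKR7A2 (50.7).

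The 9 lists of related genes gave the surroundings of these members. Of their 104 genes tested, 19 were higher and 11 lower with si-CNN3#1 in edgeR's test, beside 6.17% higher and 7.14% lower (13.3% in all) over all genes tested. The median log2 fold change was 0.014, against 0.0023 over all genes. The counts per list below stand beside the same 13.3%, and nothing is read from them about a list as a whole. NFE2L2, which encodes NRF2, was among the higher genes, at 243.6, 254.4 and 245.3 CPM against 223.3, 238.8 and 235.5 CPM (log2 fold change 0.09, SE 0.029, adjusted p = 0.0252). KEAP1, its inhibitor, had a log2 fold change of 0.02 (adjusted p = 0.684). Of the 12 NRF2 genes and regulators, 2 were higher (NFE2L2 and the small Maf factor MAFF, 0.24) and 2 lower (the ubiquitin ligase subunit BTRC, -0.19, and the related factor NFE2L1, -0.12). Between replicates NFE2L2 ran opposite to AKR1B1 (r = -0.69, slope -0.26), but its replicate number term did not pass (adjusted p = 0.366). The median r of this list's 5 genes with a mean of at least 100 CPM is that same value, because NFE2L2 is the middle one of the 5. NFE2L1, 1 of these 5, ran with AKR1B1 instead (r = 0.98, slope 0.23).

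Of 18 glutathione genes 3 passed, a share near that of all genes (13.3%). The cystine importer subunits SLC7A11 (log2 fold change 0.62, SE 0.071, adjusted p = 1.17e-09) and SLC3A2 (0.24, adjusted p = 3.89e-11) were higher and the glutathione transferase GSTP1 was lower (-0.08, adjusted p = 0.0390). SLC7A11 stood at 19.5, 21.9 and 21.2 CPM with si-CNN3#1 and at 14.3, 13.0 and 13.5 CPM with si-NC, without overlap. GCLC, the catalytic partner of GCLM, had a log2 fold change of -0.003 (adjusted p = 0.987), so of this enzyme's subunits only GCLM passed; the difference between the subunits was not tested.

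Among 12 thioredoxin and peroxiredoxin genes, SESN2 (log2 fold change 0.33) and TXN (0.15), the substrate of TXNRD1, were higher, and PRDX4 (-0.14) and PRDX2 (-0.11) lower. Of 7 genes of NADPH supply, ME1 (0.25) and MTHFD2 (0.11) were higher. Among 18 quinone, carbonyl and conjugating enzymes, 5 were higher and 3 lower; those with the largest changes were ALDH1A1 (0.80, at only 1.4 to 3.3 CPM), OSGIN1 (0.48), CBR3 (-0.34) and TRIM16L (0.31), the last of which has a near-identical relative in TRIM16 and is uncertain. Of 7 heme and iron genes, ABCB6 (0.91, at 0.5 to 1.8 CPM), HMOX1 (0.17) and the ferritin heavy chain FTH1 (0.12) were higher and FECH (-0.14) and the ferritin light chain FTL (-0.10) lower.

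The list closest to AKR1B1 by function holds the polyol pathway and the osmotic response, and 2 of its 6 tested genes passed, where 13.3% of all genes did. NFAT5, the osmotic transcription factor, was higher (log2 fold change 0.07, SE 0.025, adjusted p = 0.0394), and the taurine importer SLC6A6 was lower (-0.20, SE 0.041, adjusted p = 0.000256). SORD, the enzyme after AKR1B1 in the polyol pathway, had a log2 fold change of -0.01 (adjusted p = 0.927). The myo-inositol importer SLC5A3 had one of 0.07 (adjusted p = 0.106), which passed with the replicate block (adjusted p = 0.00335). Of 20 retinoid, steroid and prostaglandin enzymes, PTGS2 (0.30) and HSD17B12 (0.13) were higher. Of the 4 other aldo-keto reductase family genes tested (AKR1E2 and KCNAB1 to KCNAB3), 0 passed; AKR1B15, AKR1C4, AKR1D1, AKR7A3 and AKR7L were too low to test.

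**Figure D4:**
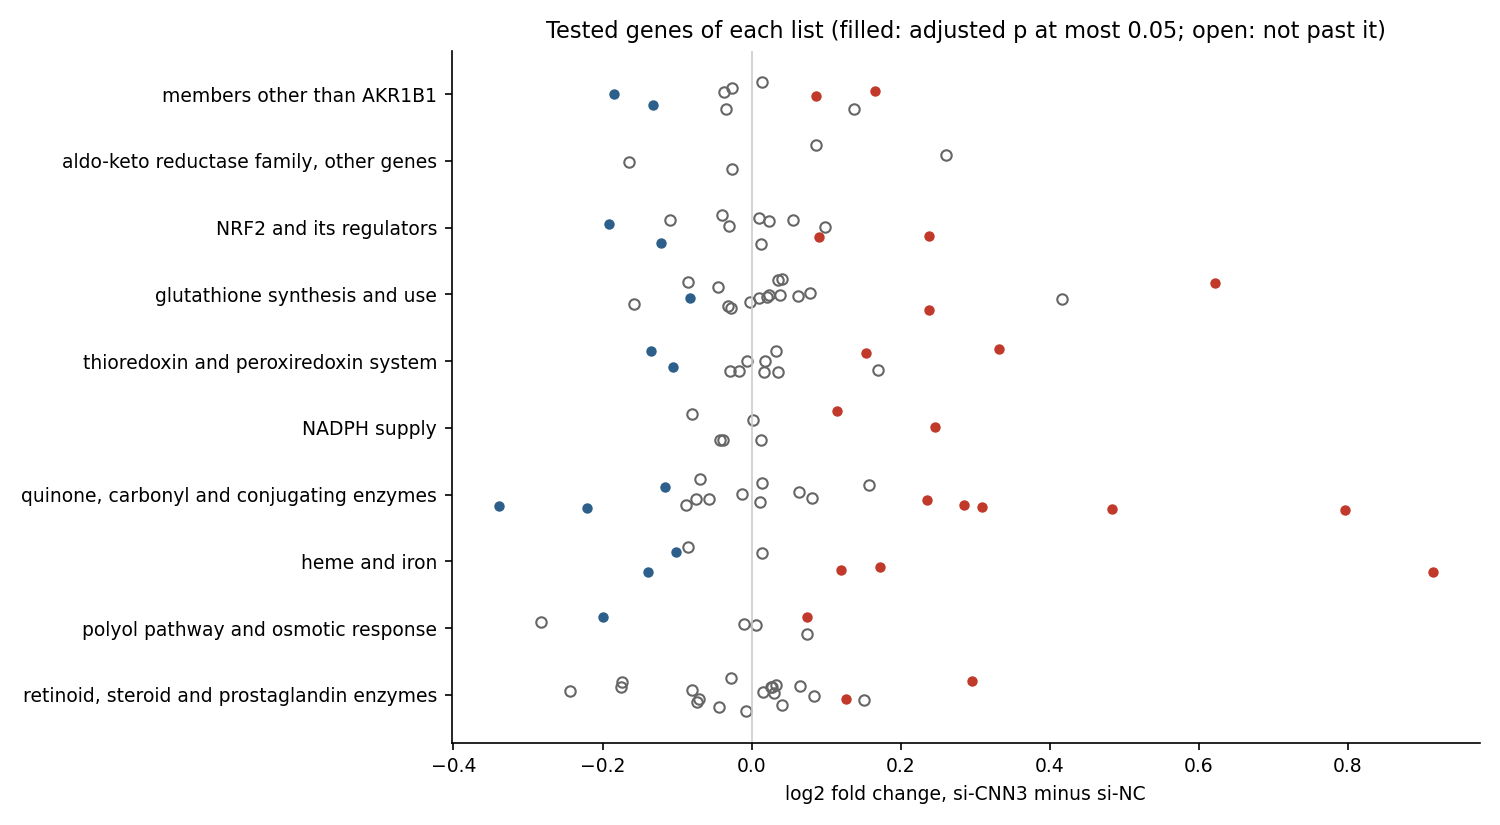
Log2 fold change, si-CNN3 minus si-NC (horizontal axis), of each tested gene in the 9 lists and of the 9 members other than AKR1B1 (rows; vertical scatter within a row has no meaning), filled where edgeR's adjusted p was at most 0.05. Most points are open and lie within 0.2 of 0, and filled points stand on both sides in 6 of the 9 lists.

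For replicate number, 4 of the 104 list genes passed edgeR's test, beside the 0.769% of all genes given above. SLC5A3 was the list gene most like AKR1B1 among them, at 370.7, 355.5 and 388.5 CPM with si-CNN3#1 and 362.0, 328.3 and 368.9 CPM with si-NC (r = 0.97, slope 0.66, adjusted p = 1.80e-05). Replicate 2 was its lowest and replicate 3 its highest sample in both groups, as for AKR1B1. SLC5A3 lies within the MRPS6 locus on the same strand, and MRPS6 had 901 to 1134 counts per sample, so reads on shared stretches are uncertain. The peroxidase PRDX1 stood at 408.6, 395.0 and 429.9 CPM against 406.3, 391.9 and 421.2 CPM (r = 0.91, slope 0.45, adjusted p = 0.00592). TXN (r = 0.84, slope 0.44, adjusted p = 0.0263) and FTH1 (r = 0.47, slope 0.34, adjusted p = 4.05e-08) also passed, FTH1 with replicate 1 highest in both groups. In DESeq2's likelihood ratio test FTH1 was the 1 list gene that passed (adjusted p = 0.00670), and SLC5A3 had an adjusted p of 0.243.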

How the data were processed

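RNA of 6 SiHa samples was sequenced after TruSeq library preparation. The submitters' processing notes name TopHat2 2.0.9, Bowtie2 2.0.6, HTSeq and DESeq 1.10.1. The authors deposited raw read counts per Ensembl gene and FPKM values of the same genes, made from these counts (1 implied length per gene in 12350 of 12350 genes checked, within 0.001). The genome build, annotation, strand setting and treatment of reads with several matches are not given in the sources used here. Names and positions came from GENCODE release 29 on GRCh38, which named 45342 of 48162 genes and left 2820 unnamed. Start-site sequences came from RefSeq (GRCh38.p14), where 9 of the 10 members had an entry.

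Counts were analysed with edgeR 4.0.16 in R 4.3.3 (TMM, filterByExpr, quasi-likelihood test on condition, Benjamini-Hochberg over 15860 genes, threshold 0.05), after a test on simulated data. Standard errors are of log2 fold changes. Within-group deviations used log2 CPM with a prior count of 2, and counting error is that of Poisson counts. Alternatives were RLE or total-count scaling, DESeq2 1.42.0, other filters on low counts (none, or at least 10 counts in every sample), a prior count of 0.5, a replicate block and each sample left out in turn. The test of replicate number, the fits without both samples numbered 2 and the differences within numbers were chosen after seeing the data.

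Samples with the same number deviated together: over 2486 genes with at least 100 CPM the r of their deviations was 0.32, 0.34 and 0.25 for numbers 1, 2 and 3, and -0.23 to -0.07 for unlike numbers, so the numbers were taken to pair the samples. This rests on the data and not on the labels. The paper describes the 3 samples of a group as independent experiments. The members and all lists were chosen with earlier results of these data known. The genes named are the members, CNN3, in each list at most the 4 called genes with the largest change, and the 5 genes with the highest and the 5 with the lowest r with AKR1B1. KEAP1, GCLC, SORD, SLC5A3, PRDX1, FTL, TRIM16 and the genes too low to test are named beside them, chosen after their values were seen or as counterparts of a member.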

Additional observations from a re-analysis of the deposited data

How the results depend on the processing

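The 4 member calls, 2 higher and 2 lower, were kept under both other scalings, both other filters and the replicate block; DESeq2 called 3 and the fits without single samples 2 to 4, the lowest without si-CNN3 replicate 3. Over all genes 2111 calls became 1073 with DESeq2 (433 higher, 640 lower of 12761), 1306 without both samples numbered 2, 1551 to 1747 without single samples, and 2727 with the replicate block, which ended no member's call and added none. List genes called fell from 30 to 16 with DESeq2 and ranged from 21 to 26 without single samples. Members with an r above 0 numbered 9, with r of only 0.03, 0.11 and 0.12 for AKR1A1, AKR1B10 and GCLM. The share of 55.2% above 0 given for other genes covers those with a mean of at least 100 CPM. Of the members only AKR1C3, NQO1 and TXNRD1 reach that level, so it is not a like background for all 9. The members above 0 numbered 8 with total-count scaling, where AKR1A1 turned to -0.06, and 7 to 9 without single samples. Without both samples numbered 2 there were 5, and for differences within numbers 2, where each r rests on little. Genes called for replicate number fell from 122 to 8 with DESeq2, members from 2 to 0 and list genes from 4 to 1. The cause of these changes was not tested, but DESeq2 and the smaller fits tested other numbers of genes or samples. Fold changes of members not called reversed 6 times, in 4 fits without a single sample: AKR1C3 to 0.012 without si-CNN3 replicate 2 (range -0.064 to 0.012); AKR1B10 to 0.31 without si-CNN3 replicate 3 and 0.27 without si-NC replicate 3 (range -0.39 to 0.31, and -0.41 without both samples numbered 2); AKR1C1 to -0.038, -0.032 and -0.016 without si-CNN3 replicate 3, si-NC replicate 2 and si-NC replicate 3 (range -0.038 to 0.087). That of AKR1B1 ran from -0.20 to -0.07 without single samples. Depth limits AKR1B10 and AKR1C2 most.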

Other observations

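NUB1 and ID1, named for an r with AKR1B1 among the 5 highest and the 5 lowest, also had large deviations, and their levels are given as a description with no test. NUB1 stood at 407.7, 375.8 and 415.8 CPM with si-CNN3#1 and 468.5, 416.6 and 473.0 CPM with si-NC, lowest in replicate 2 of both groups. ID1 stood at 255.3, 285.5 and 253.4 CPM and at 307.0, 341.4 and 293.7 CPM, highest in replicate 2 of both groups. NUB1 overlaps WDR86 on the other strand, which had 326 to 553 counts per sample.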
